A study of Mus musculus with 6 samples.

Results

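Transcripts of 9 complement genes were sought on arrays of mouse mammary material: the C1q chain genes C1qa, C1qb and C1qc, the protease gene C1ra, the components C3 and C4b, the factor B gene Cfb and the receptor genes C3ar1 and C5ar1. A gene was taken where a probe set of the platform annotation named it alone. This held for 8 of the 9 genes, each with 1 probe set, among 22180 genes with such a probe set in all. C3 had no probe set of this kind in the table used and was not analysed here.

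The complement system is a cascade of blood and tissue proteins that marks cells and debris for uptake and calls in leukocytes. In the classical pathway, C1q binds antibody, pentraxins or dying cells and activates the proteases C1r and C1s, which cleave C4 and C2. In the alternative pathway, factor B supplies the protease that cleaves C3. The fragments C3a and C5a act on leukocytes through the receptors encoded by C3ar1 and C5ar1. Much complement protein in blood comes from the liver, whereas the C1q chains are made largely by macrophages and dendritic cells.

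The tumor group held 3 mammary tumors, numbered 23, 24 and 25, from females of genotype Trp53L/L;Brca1L/L. They had developed several months after Ad-K8-Cre, an adenovirus with Cre under a keratin 8 promoter, was injected into the milk ducts, and the labels call them null for both genes. The wild-type group was 3 preparations of mammary luminal epithelium, sorted for YFP from Rosa26-Stop-YFP females 10 to 14 days after the same injection (mice 1, 2 and 4). Both groups thus received the same virus, and ages are not given. The labels describe a sort for wild-type cells and none for tumors, and they do not tie the 3 tumors to separate mice.

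Values are log2 expression values after RMA, a method that corrects background, aligns the arrays and summarises probes, and a difference of 1 is a 2-fold difference. The background mark of an array was the level that 95% of 1105 olfactory receptor genes stayed under, 3.24 to 3.45 on tumor arrays and 3.70 to 3.86 on wild-type arrays. Brca1 was higher in every tumor (3.74 to 4.10) than on any wild-type array (2.81 to 2.99), adjusted p of 0.044 in limma. All 3 wild-type values of Brca1 lay under the mark, so its size is a difference of RMA values only. The labels name no deleted exons, so the Brca1 values check nothing about the genotype, and Trp53 was not analysed here. Of 10 luminal markers 9, among them Krt8, Krt18 and Epcam, lay above the mark on every array. Krt19 did not, at 2.05 in tumor 25. All 10 had lower means in tumors, as did 12933 of all 22180 genes. Of the 10 markers 0 passed limma's test (8 at an unadjusted p under 0.05). The mean of 10 luminal markers was 6.38 to 7.90 in tumors and 8.44 to 9.07 in wild-type cells. The wild-type arrays also carried the fibroblast gene Dcn at 10.1 to 11.1 and the adipocyte gene Fabp4 at 8.61 to 10.8. These were the brightest of their lists there. On wild-type arrays the mean of 10 fibroblast markers was 5.15 to 5.78 and that of 7 adipocyte markers 4.35 to 4.84. The adipocyte genes Adipoq, Lep and Cidec lay under the mark on all 6 arrays.

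Upstream sequences are shown for C1qb and C1qc, which lie next to each other and to C1qa on chromosome 4 in RefSeq's mouse gene table and were higher in tumors together. Each sequence gives the 250 bases before the start site used in RefSeq's promoter table, 5′ to 3′ in the direction of transcription, on the minus strand of GRCm38.p6. For C1qc that site lies within the span of the gene, and the last 22 bases shown are inside it. Capitals mark matches, on either strand, to the purine box GAGGAA of PU.1, a myeloid transcription factor.
C1qb, chr4:136886201-136886450: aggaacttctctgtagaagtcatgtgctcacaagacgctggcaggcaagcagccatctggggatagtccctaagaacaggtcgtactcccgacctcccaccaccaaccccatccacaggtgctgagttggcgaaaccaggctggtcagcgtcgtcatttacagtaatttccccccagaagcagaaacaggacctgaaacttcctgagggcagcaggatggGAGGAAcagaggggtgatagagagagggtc
C1qc, chr4:136892915-136893164: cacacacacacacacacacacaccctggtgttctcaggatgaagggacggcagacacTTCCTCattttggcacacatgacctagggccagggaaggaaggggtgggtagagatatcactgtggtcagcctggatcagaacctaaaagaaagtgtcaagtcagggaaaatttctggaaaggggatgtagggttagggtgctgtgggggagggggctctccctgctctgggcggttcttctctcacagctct
The C1qb window held GAGGAA from 30 to 25 bases before the table's start site. The C1qc window held the reverse letters of the purine box, from 193 to 188 bases before that site. Among all 32851 windows of this length in the table, 23.3% held the purine box on either strand. The windows of C1ra, C3ar1 and C5ar1 did not hold it (202 bases of the C5ar1 window lie inside the gene), and 5 of the 8 measured genes had a window in the table. Of 2 other motifs searched on both strands, TTNNGCAA (C/EBP factors) was in 0 of these 5 windows and in 9.56% of all, and TATAAA was in that of C3ar1 and in 12.4% of all. No matches overlapped, and a match describes letters, not binding.

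The tumors carried far more transcript of the C1q chains than the sorted luminal cells did, with C1qa and C1qb up 17.0-fold and 16.4-fold. C1qc and Cfb rose too, by smaller amounts. C3ar1 had a higher mean in tumors without passing the test, and C1ra, C4b and C5ar1 did not pass. All 4 genes that passed limma's test with Benjamini-Hochberg adjustment over 22180 genes, at an adjusted p under 0.05, were higher in tumors. Among all genes 3.91% passed, 2.52% upward and 1.39% downward. The median difference of the 8 genes was 1.54 log2 units, beside -0.12 over all genes. The groups did not overlap for 5 of the 8 upward and for 1 downward, where all genes gave 14.0% and 22.4% (36.4% in either direction).

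**Figure D1:**
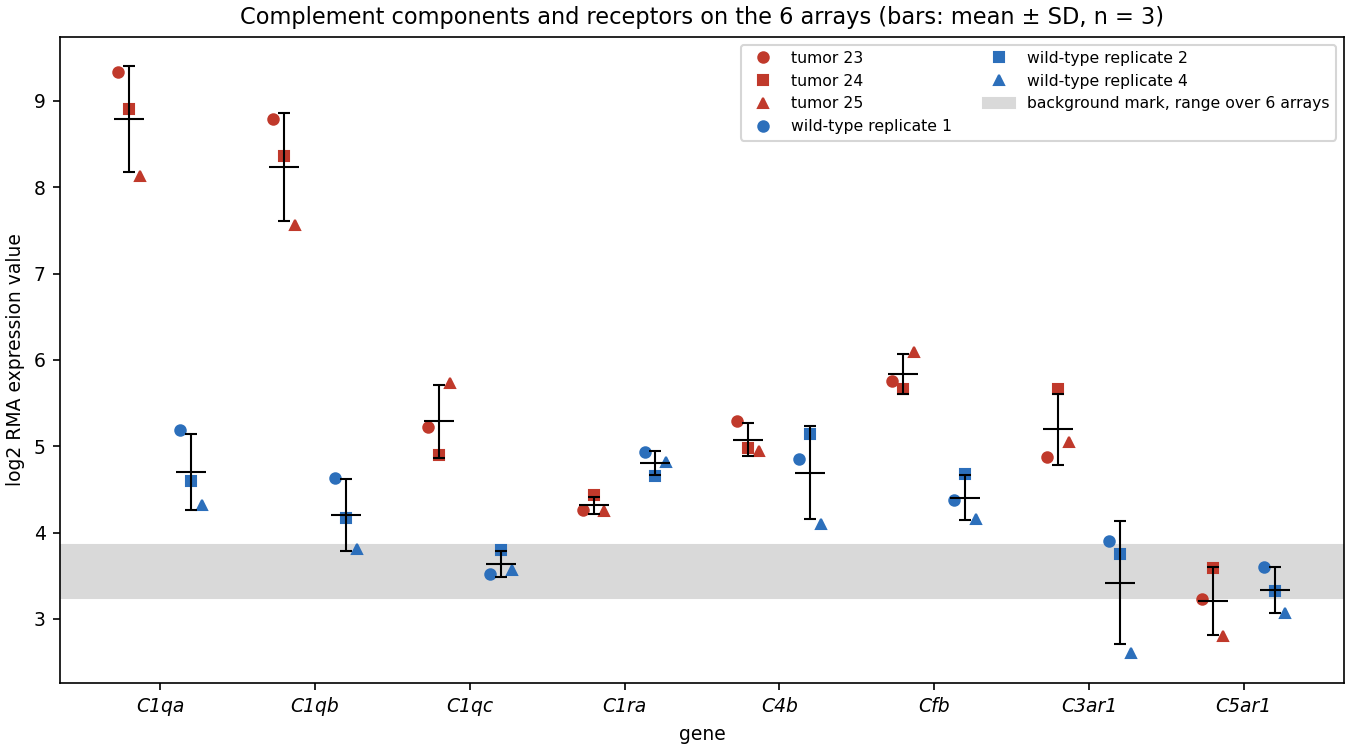
Log2 RMA values (vertical axis) of the 8 measured complement genes (horizontal axis) on each array, tumors in red and wild-type cells in blue, with the mean and SD of 3 arrays as bars. Grey shows the range of the background mark over the 6 arrays (3.24 to 3.86). For C1qa and C1qb all tumors sit more than 2.9 log2 units above every wild-type array.

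C1qa encodes the A chain of C1q, the recognition protein of the classical pathway. It measured 9.33, 8.91 and 8.13 in tumors 23, 24 and 25, against 5.19, 4.60 and 4.32 in wild-type replicates 1, 2 and 4. The lowest tumor lay 2.94 log2 units above the highest wild-type array, a gap wider than the range within either group (1.21 in tumors and 0.87 in wild-type cells). C1qa rose by 4.09 ± 0.37 log2 units (SE, n = 3 and 3), with a 95% interval of 3.20 to 4.98 and an adjusted p of 0.011 in limma.

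C1qb, for the B chain, followed C1qa on every array. Its values were 8.79, 8.36 and 7.56 in tumors 23, 24 and 25, against 4.64, 4.17 and 3.81 in wild-type replicates 1, 2 and 4. It rose by 4.03 ± 0.37 log2 units (SE, n = 3 and 3; 95% interval 3.15 to 4.92, adjusted p of 0.011 in limma). With each gene centred on its own 6-array mean, the profiles of C1qa and C1qb differed by 0.10 log2 units or less on any array. Both chains were highest in tumor 23 and lowest in tumor 25, and among wild-type arrays both were highest in replicate 1. These 2 genes passed in all 6 sets that left out 1 array, at differences of 3.82 to 4.42 for C1qa and 3.76 to 4.37 for C1qb. The highest adjusted p was 0.0498 for each, without wild-type replicate 4, where 0.325% of all genes passed.

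C1qc, for the C chain, is needed with the A and B chains to form the C1q molecule. Its values were 5.23, 4.90 and 5.74 in tumors 23, 24 and 25, against 3.52, 3.80 and 3.57 in wild-type replicates 1, 2 and 4. The groups did not overlap, and the tumor with the highest C1qc, tumor 25, was the one with the lowest C1qa and C1qb. C1qc rose by 1.66 ± 0.25 log2 units (SE, n = 3 and 3; 95% interval 1.06 to 2.26, adjusted p of 0.027 in limma). All 3 wild-type values were under the background mark, so the size of this rise is a difference of RMA values only. The centred profiles of C1qc and C1qa differed by up to 1.82 log2 units on an array, whereas those of C1qc and Cfb differed by 0.30 or less. C1qc did not pass without tumor 23 (1.69, adjusted p of 0.072) or without wild-type replicates 1, 2 or 4 (1.60 to 1.74, adjusted p of 0.072 to 0.099).

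C1ra encodes C1r, the protease that C1q activates first. It measured 4.26, 4.43 and 4.25 in tumors 23, 24 and 25, against 4.93, 4.66 and 4.82 in wild-type replicates 1, 2 and 4. Every tumor lay below every wild-type array, by at least 0.23 log2 units. The difference of -0.49 ± 0.17 (SE, n = 3 and 3; 95% interval -0.89 to -0.09) did not pass (limma adjusted p of 0.14). C1ra passed only after centring on housekeeping genes (-1.15, adjusted p of 0.033), a scaling under which the median of all genes was -0.78 in place of -0.12. Relative to the median of all genes C1ra stood at -0.37 under both scalings. This sameness was fixed in advance, because centring shifts all genes of an array alike. Relative to that median C1ra stood at -0.67 after a second quantile normalization and at -0.63 after cyclic loess. C1ra has a close relative in the mouse, C1rb, whose own probe set measured 2.73 to 3.96 in tumors and 3.04 to 3.54 in wild-type cells. How far the probes share signal was not tested.

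C4b encodes C4, which the C1 proteases cleave. Its values were 5.30, 4.98 and 4.95 in tumors 23, 24 and 25, against 4.85, 5.14 and 4.10 in wild-type replicates 1, 2 and 4. The groups overlapped, and the wild-type arrays spread more widely (1.04 log2 units) than the tumors (0.35). The difference was 0.38 ± 0.30 (SE, n = 3 and 3; 95% interval -0.33 to 1.09, adjusted p of 0.42 in limma), and it was -0.28 after centring on housekeeping genes. The interval reaches a rise of 2-fold and a small fall. C4a, a near-identical neighbour that RefSeq lists as a transcribed pseudogene, has a probe set of its own at 2.73 to 3.32 in tumors and 2.51 to 3.71 in wild-type cells, and the C4b value is uncertain to the extent that probes bind both.

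Cfb encodes factor B, the protease part of the alternative pathway's C3 convertase. It measured 5.75, 5.66 and 6.09 in tumors 23, 24 and 25, against 4.38, 4.68 and 4.16 in wild-type replicates 1, 2 and 4. All 6 values lay above the background mark, and the lowest tumor lay 0.98 log2 units above the highest wild-type array. Cfb rose by 1.43 ± 0.21 log2 units, or 2.69-fold (SE, n = 3 and 3; 95% interval 0.91 to 1.94, adjusted p of 0.027 in limma). It stayed above wild type under every alternative, but its call was lost with a second quantile normalization (1.12, adjusted p of 0.055) and after centring on housekeeping genes (0.77, adjusted p of 0.062). Of the 6 sets that left out 1 array it passed in 1, that without tumor 24, and in the other 5 the adjusted p was 0.057 to 0.094. C2, the classical counterpart of factor B and the neighbour of Cfb on chromosome 17, differed from wild type by -0.88 ± 0.29 (SE) without passing (adjusted p of 0.13 in limma).

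C3ar1 encodes the receptor for C3a. It measured 4.88, 5.66 and 5.04 in tumors 23, 24 and 25, against 3.90, 3.75 and 2.60 in wild-type replicates 1, 2 and 4. The groups did not overlap, and replicate 4 lay well below the other wild-type arrays. The difference of 1.78 ± 0.40 log2 units (SE, n = 3 and 3; 95% interval 0.82 to 2.73) had an adjusted p of 0.064 in limma. It passed when genes dimmer than the median were left out (adjusted p of 0.033) and with a trended robust prior (0.043). That filter took the mean of all 6 arrays, and C3ar1 averaged 5.19 in tumors and 3.42 in wild-type cells. Wild-type replicates 2 and 4 lay under the background mark, and without replicate 4 the difference was 1.37.

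C5ar1 encodes the receptor for C5a, found mainly on neutrophils and macrophages. Its values were 3.23, 3.59 and 2.80 in tumors 23, 24 and 25, against 3.61, 3.33 and 3.07 in wild-type replicates 1, 2 and 4. Only tumor 24 lay above its array's background mark, so the level of C5ar1 could not be told from background on the other 5 arrays. The difference was -0.13 ± 0.26 (SE, n = 3 and 3; 95% interval -0.75 to 0.50, adjusted p of 0.75 in limma), and its sign turned with cyclic loess (0.084) and with a second quantile normalization (0.024).

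**Figure D2:**
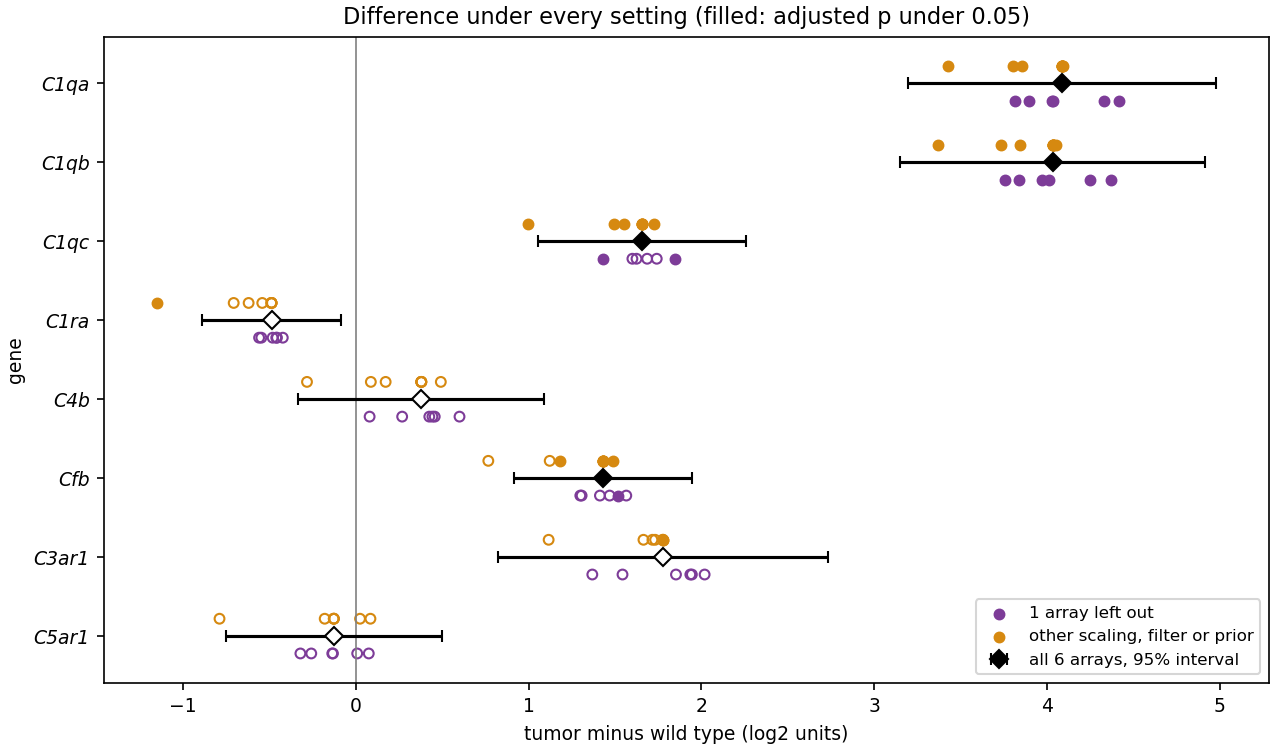
Difference between tumors and wild-type cells in log2 units (horizontal axis) for each gene (vertical axis). Black diamonds with 95% intervals use all 6 arrays, purple points leave out 1 array and orange points use another scaling, filter or prior; filled symbols have an adjusted p under 0.05. C1qa and C1qb are filled throughout, at 3.37 to 4.42, whereas C1qc and Cfb lose their fill in 4 and 7 of the alternatives.

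Beside the 4 genes that passed with all 6 arrays, 2 passed without tumor 23 (0.64% of all genes), 4 without tumor 24 (5.41%) and 3 without tumor 25 (1.69%). Without wild-type replicates 1, 2 or 4 the count was 2 (0.622%, 0.766% and 0.325% of all genes).

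Of 48 other complement genes, 44 were measured, and limma's test called 1 higher and 1 lower in tumors, 4.55% beside 3.91% of all genes. Their median difference was -0.19, and 19 lay under the background mark on all 6 arrays. The gene that rose was Colec12, a membrane scavenger receptor of the collectin family. It measured 4.61, 5.03 and 5.67 in tumors 23, 24 and 25, against 3.22, 3.42 and 3.42 in wild-type replicates 1, 2 and 4, a rise of 1.75 ± 0.29 log2 units (SE, n = 3 and 3; adjusted p of 0.033 in limma). Colec12 stayed under the background mark in wild-type cells. It kept its call in 2 of 6 sets that left out 1 array, those without tumor 24 and without tumor 25.

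The gene that fell was Cd55, which encodes decay-accelerating factor, a membrane protein that takes C3 convertases apart. It measured 4.66, 3.60 and 2.18 in tumors 23, 24 and 25, against 6.76, 7.74 and 6.38 in wild-type replicates 1, 2 and 4. The groups stood 1.72 log2 units apart, and tumor 25 lay under the background mark. Cd55 fell by 3.48 ± 0.66 log2 units (SE, n = 3 and 3; 95% interval -5.06 to -1.90), and limma's adjusted p was 0.044. It lost its call in all 6 sets that left out 1 array, with differences of -4.07 to -2.83 and adjusted p of 0.054 to 0.12. The other membrane regulators did not pass: Cd59b measured 0.85 ± 0.21 and Cd59a 0.31 ± 0.63 (SE) relative to wild type.

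Among the other proteases and substrates, 0 of 7 passed limma's test (2 at an unadjusted p under 0.05), with Masp1, a lectin pathway protease, at 0.95 ± 0.31 and C2 at -0.88 ± 0.29 (SE). All 7 measured terminal components, which form the membrane attack complex, had lower means in tumors, as did 12933 of all 22180 genes. Of the 7 components 0 passed limma's test (1 at an unadjusted p under 0.05). Of them, 6 lay under the background mark on all 6 arrays. Hc, the mouse gene of C5, measured -0.92 ± 0.35 and C7 -0.41 ± 0.18 (SE) relative to wild type. C7 lay under the mark on every array and Hc on every tumor array, so these are differences of RMA values only. The mark itself was lower on tumor arrays (3.24 to 3.45) than on wild-type arrays (3.70 to 3.86). Its part in the lower means of the terminal components was not tested. Cfp, which encodes the alternative pathway's stabiliser properdin, measured 6.26, 5.89 and 5.08 in tumors 23, 24 and 25, against 4.99, 5.51 and 4.35 in wild-type replicates 1, 2 and 4, and the groups overlapped.

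Of 6 soluble regulators 4 lay under the background mark on all 6 arrays, and Serping1 and Clu lay above it. Serping1, which encodes the inhibitor of C1r and C1s, measured 7.20 and 7.05 in tumors 23 and 24 but 3.55 in tumor 25, against 5.63, 5.25 and 5.38 in wild-type replicates 1, 2 and 4. Over all arrays its difference was 0.51 ± 0.95 (SE, adjusted p of 0.73 in limma). Without tumor 25 it was 1.71, with an adjusted p of 0.036. Clu, which encodes clusterin, an inhibitor of the membrane attack complex, measured 7.29, 6.85 and 5.97 in tumors 23, 24 and 25, against 7.59, 7.91 and 7.91 in wild-type replicates 1, 2 and 4. Every tumor lay below every wild-type array, and the difference of -1.09 ± 0.35 (SE) did not pass (adjusted p of 0.12 in limma).

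Integrin chains of complement receptors 3 and 4, which bind fragments of C3 on myeloid cells, were higher in every tumor than on any wild-type array. Itgax measured 5.23, 6.68 and 4.66 in tumors 23, 24 and 25, against 3.17, 3.22 and 2.63 in wild-type replicates 1, 2 and 4, a difference of 2.51 ± 0.51 log2 units (SE, adjusted p of 0.052 in limma). Itgam differed by 1.77 ± 0.38 (adjusted p of 0.057), and their partner chain Itgb2 by 1.43 ± 0.35 (adjusted p of 0.077). Of the 9 other receptor genes 0 passed limma's test (4 at an unadjusted p under 0.05), and 8 had higher means in tumors. Among all 22180 genes 9247 had higher means in tumors. The groups did not overlap upward for 4 of the 9 receptor genes and downward for 0, where all genes gave 14.0% and 22.4%. Those 4 were the integrin chains and Lrp1, which differed by 1.30 ± 0.37 (SE, adjusted p of 0.10 in limma). Neither Itgax nor Itgam reached the background mark in wild-type cells, so their sizes are differences of RMA values only. Of 14 alternatives Itgax passed in 5 and Itgam in 4, and with 1 array left out the adjusted p reached 0.14 and 0.15.

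**Figure D3:**
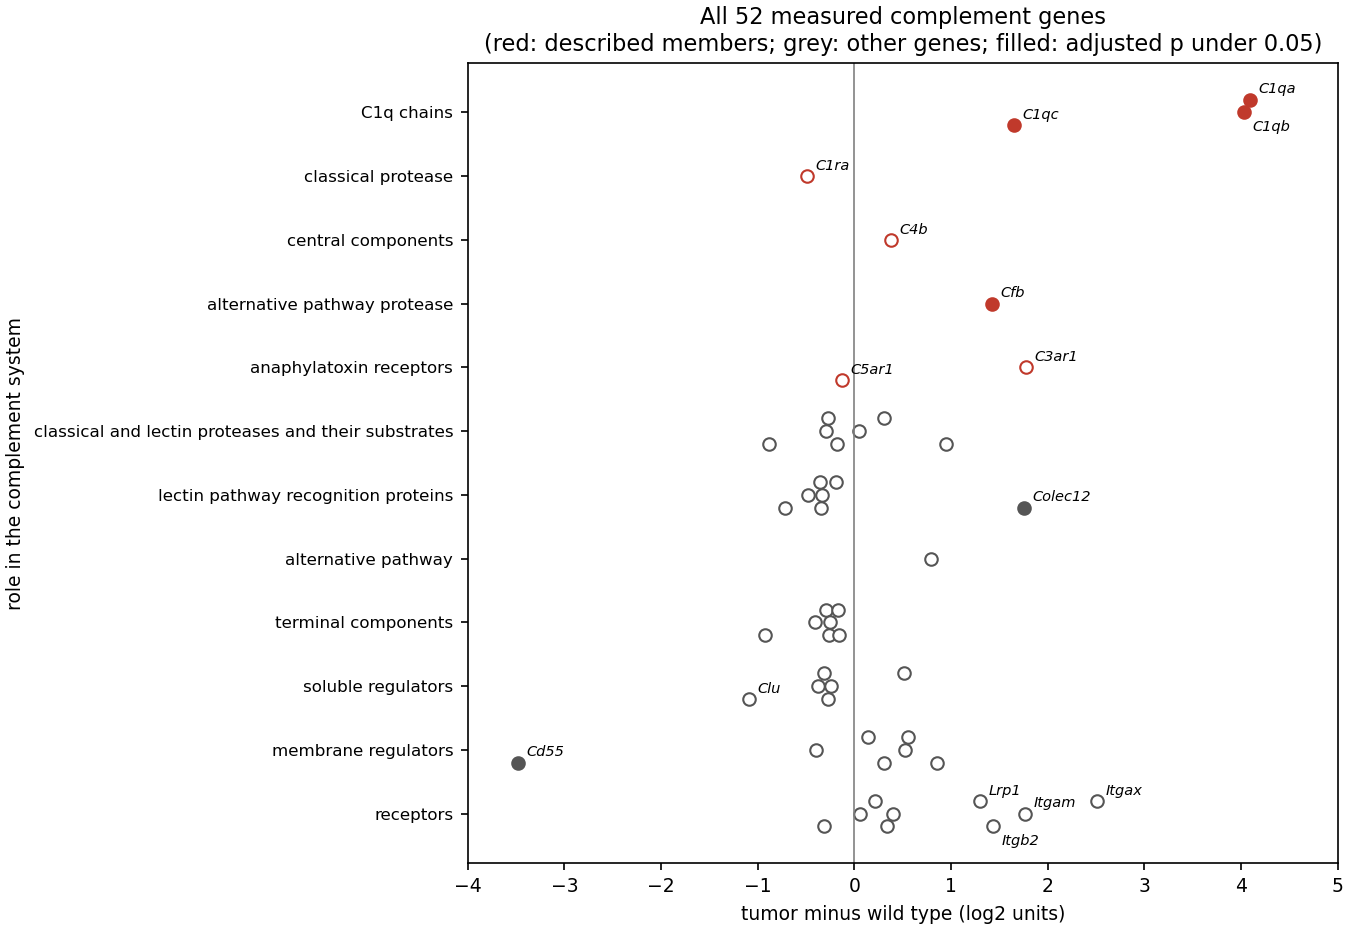
Difference between tumors and wild-type cells in log2 units (horizontal axis) for the 52 measured complement genes, grouped by role (vertical axis); red marks the 8 described first, grey the other 44, and filled points have an adjusted p under 0.05. C1qa and C1qb stand at the right edge near 4, Cd55 at the left edge at -3.48, and the 7 terminal components all lie below 0, Hc lowest at -0.92.

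Of 16 macrophage markers 15 were measured, 12 had higher means in tumors, and 3 passed limma's test, all upward: Csf1r, the receptor for colony-stimulating factor 1, by 2.67 ± 0.30 log2 units, Cd68 by 1.78 ± 0.33 and Adgre1, which encodes a macrophage surface receptor, by 1.56 ± 0.22 (SE; adjusted p of 0.016 to 0.043). Csf1r measured 6.79, 6.58 and 6.33 in tumors 23, 24 and 25, against 4.01, 4.37 and 3.30 in wild-type replicates 1, 2 and 4. The median difference of the 15 was 1.56, beside -0.12 over all genes, of which 9247 of 22180 had higher means in tumors. The groups did not overlap upward for 9 and downward for 2 (Cd163 and Marco), where all genes gave 14.0% and 22.4%. The sum of the unlogged values of the 15 markers was 1124 to 2346 in tumors and 422 to 1066 in wild-type cells. Each of the 15 lay above the mark on at least 1 array, and in wild-type cells Adgre1, Mrc1 and Fcgr1 never did. With 1 array left out Csf1r lost its call without tumor 23 (adjusted p of 0.053) and without wild-type replicate 1 (0.058), Cd68 in all 6 sets, and Adgre1 in all but that without tumor 24. The part of macrophages in the C1q rise was not tested. More cells of a type and more RNA per cell cannot be told apart in such samples.

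In 11 of the 15 macrophage markers the highest tumor was 23, and in 11 the lowest was 25, as for C1qa and C1qb. The share of all genes with such an order was not counted. C1qc and Cfb were highest in tumor 25, and C3ar1 in tumor 24. The macrophage markers Cd14, Cd163 and Marco had lower means in tumors, by -0.71, -0.13 and -0.53, and did not pass. Other leukocyte lists did not pass: limma called 0 of 10 neutrophil, 0 of 7 dendritic cell, 0 of 11 lymphocyte and 0 of 5 mast cell genes (4, 2, 1 and 0 at an unadjusted p under 0.05), with median differences of 0.11, 0.04, -0.16 and -0.24. Skeletal muscle genes split the tumors: the mean of 9 was 9.07 in tumor 23 and 6.23 in tumor 25 but 3.85 in tumor 24, beside 3.65 to 3.78 on wild-type arrays. The part of muscle in these results was not tested. Of the tissue lists limma called 1 of 10 fibroblast genes (Pdgfrb, higher), 1 of 8 endothelial (Vwf, lower) and 1 of 7 basal (Myh11, lower). It called 0 of 10 luminal, 0 of 7 adipocyte and 0 of 9 skeletal muscle genes, beside 3.91% of all genes. Pdgfrb differed by 2.56 ± 0.43 log2 units (SE, adjusted p of 0.035 in limma).

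**Figure D4:**
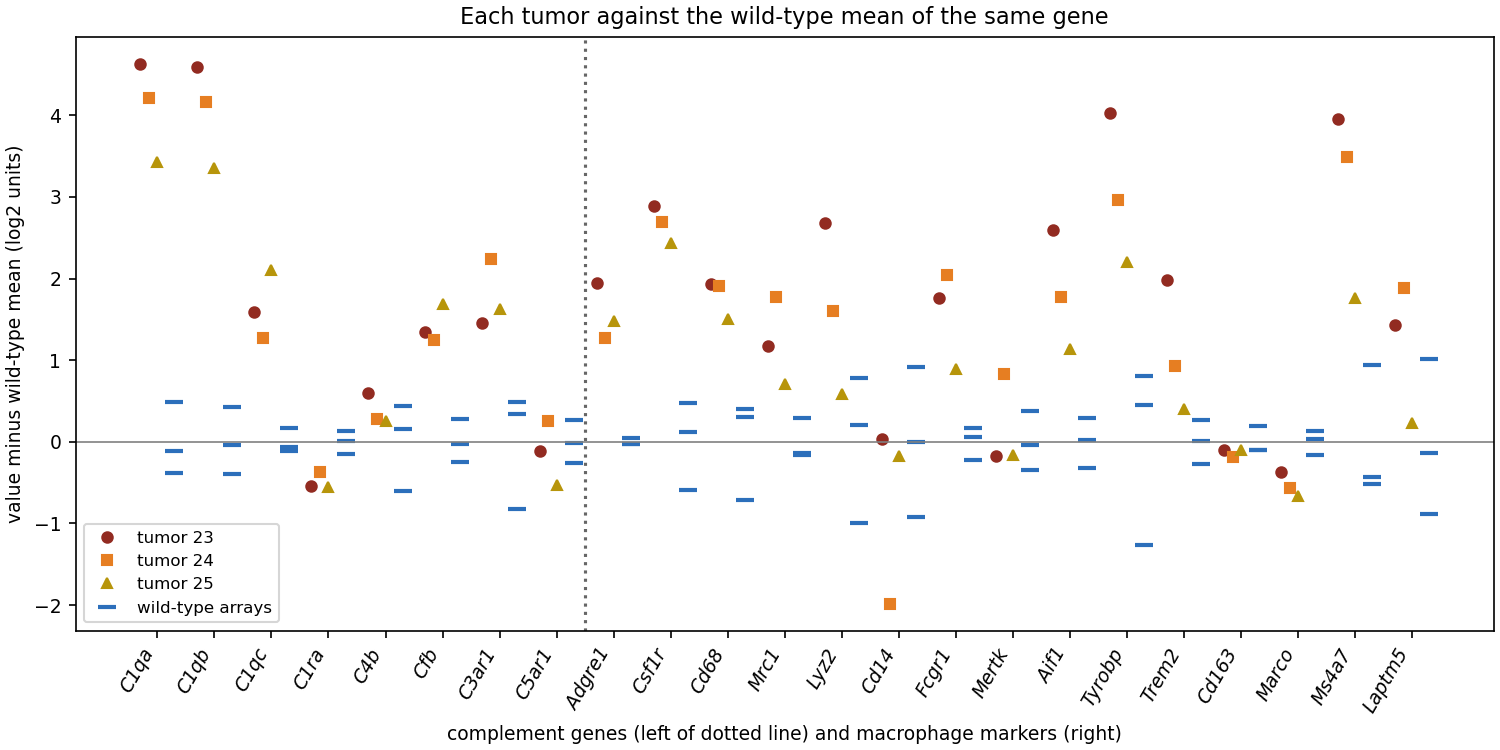
Value minus the wild-type mean of the same gene in log2 units (vertical axis), for each tumor and, as blue dashes, each wild-type array; complement genes are left of the dotted line and 15 macrophage markers right of it (horizontal axis). C1qa, C1qb, Tyrobp and Ms4a7 stand highest in tumor 23 and lowest in tumor 25, whereas C1qc and Cfb stand highest in tumor 25.

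Genes most like the mean profile of the C1q chains were sought. The measure was the root mean square distance, over the 6 arrays, between profiles centred on their own mean. The mean profile of the chains averages C1qa and C1qb, which rose by 4.09 and 4.03, with C1qc, which rose by 1.66. It thus follows no single chain closely, and likeness to a single chain was not tested. Nearest to the mean profile of C1qa, C1qb and C1qc, among 22172 other genes, was Pld4, an endosomal nuclease of myeloid cells, at a distance of 0.18 log2 units. It measured 7.79, 7.45 and 6.95 in tumors 23, 24 and 25, against 4.27, 4.53 and 3.98 in wild-type replicates 1, 2 and 4. Next came Scimp, an adaptor protein of antigen-presenting cells, at 0.23, Ankrd1, an ankyrin repeat protein, at 0.28, the transcript AB010352 at 0.30 and the small nucleolar RNA gene Snord52 at 0.32. Of these genes 4, Pld4 excepted, never passed the background mark in wild-type cells. Being chosen for likeness, they share the direction of the C1q mean by selection, and a similar tumor order was favoured by it. Ankrd1 departed from that order, at 6.21 in tumor 24 and 6.25 in tumor 25.

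Around Cfb the nearest profiles were those of Eif2ak1, a kinase that senses heme, at 0.076, Dcaf5, a ubiquitin ligase adaptor, at 0.098 and the zinc finger gene Zfp942 at 0.13. Their differences were 1.30, 1.37 and 1.37 log2 units. Their direction, too, was fixed by the choice.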

How the data were processed

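RNA of 3 tumors and 3 sorted wild-type samples was amplified with a NuGEN kit and hybridised to 1 array each, per the labels. The authors deposited log2 expression values. RMA and the oligo package are named, without versions, in the submitters' processing notes. No scanner files were used, so detection calls and batches could not be tested. Precision is limited by having 3 arrays a group.

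Of 41345 probe sets, 23521 named 1 gene in the platform annotation, 1814 several and 16010 none. By Entrez identifier 23328 were matched to RefSeq symbols (GRCm38.p6) and 193 kept their own. The probe set with the highest mean stood for each of 22180 genes. No column was left unmapped to a sample.

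A linear model per gene with moderated errors was fitted in limma 3.58.1 under R 4.3.3 (lmFit, then eBayes) and tested on both sides, without covariates or filter, with Benjamini-Hochberg adjustment over 22180 genes and a threshold of 0.05. Every adjusted p is from this fit unless an alternative is named. P-values set the difference between groups against the spread of samples within groups, with errors moderated over all genes. The groups also differed in genotype, described sorting and time after injection, which the test cannot tell apart. The fit was tested on simulated data. The labels share no replicate numbers between groups. Alternatives were 3 scalings, 2 filters on dim genes, 2 treatments of several probe sets, a trended robust prior, array weights and leaving out each array.

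The members, lists, background mark and alternatives were chosen with earlier results of these data known. Named genes were all members and the other complement genes that passed (in a role with none, the 2 largest differences). Up to 4 macrophage markers that passed were added. So were the genes of nearest profile, 5 for the mean of the C1q chains and 3 for Cfb. C3 was to be averaged with Cfb but was not measured. C1rb, C4a, Cd59a, Cd59b, Itgb2, Lrp1, Cd14, Cd163, Marco, Mrc1, Fcgr1, Tyrobp, Ms4a7, Krt8, Krt18, Krt19, Epcam, Dcn, Pdgfrb, Vwf, Myh11, Fabp4, Adipoq, Lep and Cidec were named after their values were seen.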

Additional observations from a re-analysis of the deposited data

How the results depend on the processing

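C1qa and C1qb passed under all 15 alternatives, and C1qc, Cfb, Colec12 and Cd55 kept their direction under each that could test them. The number of genes called was 867, and 1324 with array weights, 8356 after centring on housekeeping genes (which shifted the median of all genes by -0.66) and 72 to 1200 when 1 array was left out. Of the 13 housekeeping genes measured, 11 had higher means in tumors before centring, with a median difference of 0.88. Members called numbered 4, with 5 (C3ar1 added) under the trended robust prior and among genes at or above the median, 3 after quantile normalization again and among genes whose mean was 5 or more, 4 after centring (C1ra in, Cfb out), and 2 to 4 when 1 array was left out. Other complement genes called numbered 2, with 4 under array weights, under the trended robust prior and among genes at or above the median, 1 among genes with a mean of at least 5, 20 after centring on housekeeping genes, and 0 to 4 when 1 array was left out (10 to 13 at an unadjusted p under 0.05 in limma where the count was 0). Fewer genes tested, or fewer arrays, enter by construction in the filters and left-out sets; otherwise the cause was not tested. Of all calls 64.5% were higher in tumors, against 44.3% after quantile normalization again, 52.3% after cyclic loess (median shift 0.12) and 6.24% after centring on housekeeping genes. Signs turned for C4b (-0.28) and Serping1 (-0.15) after centring on housekeeping genes, and for C5ar1 after cyclic loess (0.084) and quantile normalization again (0.024). With 1 array left out C5ar1 ranged from -0.32 to 0.074 and Serping1 from -0.12 to 1.71, the negative values being those without tumor 23 (-0.12) and tumor 24 (-0.047). Filters on dim genes left out C5ar1 (both) and C1qc, C1ra, C4b and C3ar1 (mean of at least 5). Both filters took the mean of all 6 arrays, so high tumor values could keep a gene in. C1qa, C1qb and Cfb had wild-type means of 4.70, 4.21 and 4.41, under the cut of 5. No paired analysis was possible because the groups share no replicate numbers. Signal near background limits C1qc, C3ar1, C5ar1, Colec12, Itgax, Itgam, Masp1, Cd59b, Hc, C7 and Brca1, and Cd55 in tumor 25.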
